A study of Arabidopsis thaliana with 36 samples.

Results

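The comparison described here asks whether phyAB seedlings of Arabidopsis thaliana respond to warmth in the same way in root and in shoot. It is a difference of differences, the log2 change from 21 °C to 27 °C in the root minus the same change in the shoot, and it rests on the 12 phyAB libraries out of 36 in the series. A positive value means that the root response lay above the shoot response, and a negative value that it lay below. The libraries were picked by the genotype, organ and temperature that their titles give, with 3 libraries in each of 4 groups: phyAB root at 21 °C, phyAB root at 27 °C, phyAB shoot at 21 °C and phyAB shoot at 27 °C. The other 24 libraries are roots and shoots of the accession Col-0 and of a hy5 mutant under the same 2 temperatures. The labels give phyAB as a genotype without naming alleles, background or number of lines, so all 4 groups carry the same unnamed lesions. The growth protocol in the labels gives a 16 h day at 21 °C followed by an 8 h night at 15 °C for the cool groups, a 27 °C day with a 21 °C night for the warm ones, and harvest at 6 days after germination. The series title gives the warm exposure as 4 h, and the treatment protocol describes 3 days, so its length is uncertain here. Nothing states that the replicates were grown separately, so p-values may measure only technical spread between these samples.

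Phytochrome A and phytochrome B are light receptors of red and far-red light, and phytochrome B is also a temperature sensor, because warmth speeds the return of its active form to the inactive one. In the shoot, the active receptors hold back the PIF transcription factors, which drive auxin synthesis and stem elongation under shade or warmth. Roots also elongate in warmth, and how far they do so through signals from the shoot or by their own sensing is a question in the field that the title of the series names. The phyAB label names a mutant of both receptors.

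Counted reads came to 14810514 to 19045764 per phyAB root library and to 17387180 to 22000845 per phyAB shoot library. Levels are given as CPM, the reads of a gene per 1e+06 counted reads, adjusted with factors common to both organs. As RNA was taken from whole organs, fewer cells of a type and less RNA per cell cannot be told apart. Replicates differed from each other by more than counting noise, with a chi-square per degree of freedom of 3.19 to 13.2 over the phyAB pairs. PHYA transcripts were at 11 to 16.8 CPM in phyAB roots against 104 to 146 CPM in Col-0 roots, and at 22.0 to 59.7 CPM in phyAB shoots against 87.6 to 195 CPM in Col-0 shoots. PHYB transcripts were at 24.3 to 32.6 CPM in phyAB roots against 67.6 to 91.0 CPM in Col-0 roots, while the phyAB shoots, at 75.3 to 85.1 CPM, stood next to the Col-0 shoots at 85.5 to 113 CPM. Replicate 3 of the phyAB root, cool and warm alike, carries a source name of shoot although its title and tissue say root. It had little photosynthesis RNA, as the other phyAB roots did: the 46 photosynthesis genes summed to 213 to 926 CPM over the 6 phyAB roots and to 199000 to 257000 CPM over the 6 phyAB shoots. All 6 phyAB roots had a mean log2(CPM + 1) of 5.82 to 5.97 over 16 root markers, against 3.04 to 3.39 in phyAB shoots and 2.53 to 2.75 in Col-0 shoots. A list of 17 seed storage and oil body genes had sums of 692, 1350 and 3310 CPM in cool phyAB shoots and of 527, 935 and 1900 CPM in warm ones, where Col-0 shoots had 192 to 287 CPM. Replicate 3 held the highest sum at each temperature.

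Root and shoot of phyAB differed in their response to 27 °C for 2501 of 21598 genes tested, which is 11.6% (edgeR's quasi-likelihood test, adjusted p at most 0.05). The root response lay above the shoot response for 1538 genes (7.12%) and below it for 963 genes (4.46%). At least a 2-fold difference between the responses was found for 343 of the first and 153 of the second. Counts of genes called in a list, here and below, are to be read beside the 7.12% and 4.46% of all genes. The responses within each organ were broader: 4458 genes (20.6%) rose and 3618 (16.8%) fell in roots, and 4394 (20.3%) rose and 4244 (19.6%) fell in shoots. Over all genes the median difference was 0.04 on the log2 scale. With a demand of more than 1.5-fold built into the test, 108 genes passed.

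The 2501 genes were of 5 kinds. In 763 of them the response passed the test in roots and not in shoots, and in 1018 it passed in shoots and not in roots. Another 432 responded in both organs in the same direction but to a different degree, more strongly in shoots for 302 and in roots for 130. In 251 genes the organs went in opposite directions, with 152 rising in roots and falling in shoots and 99 the reverse. The remaining 37 passed in neither organ alone. Opposite responses were thus the smaller class, as 4527 genes moved the same way in both organs over the whole table. Across the 21598 genes, root and shoot responses had a Pearson correlation of 0.351, given as a description, since genes share the libraries and are not independent.

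**Figure D1:**
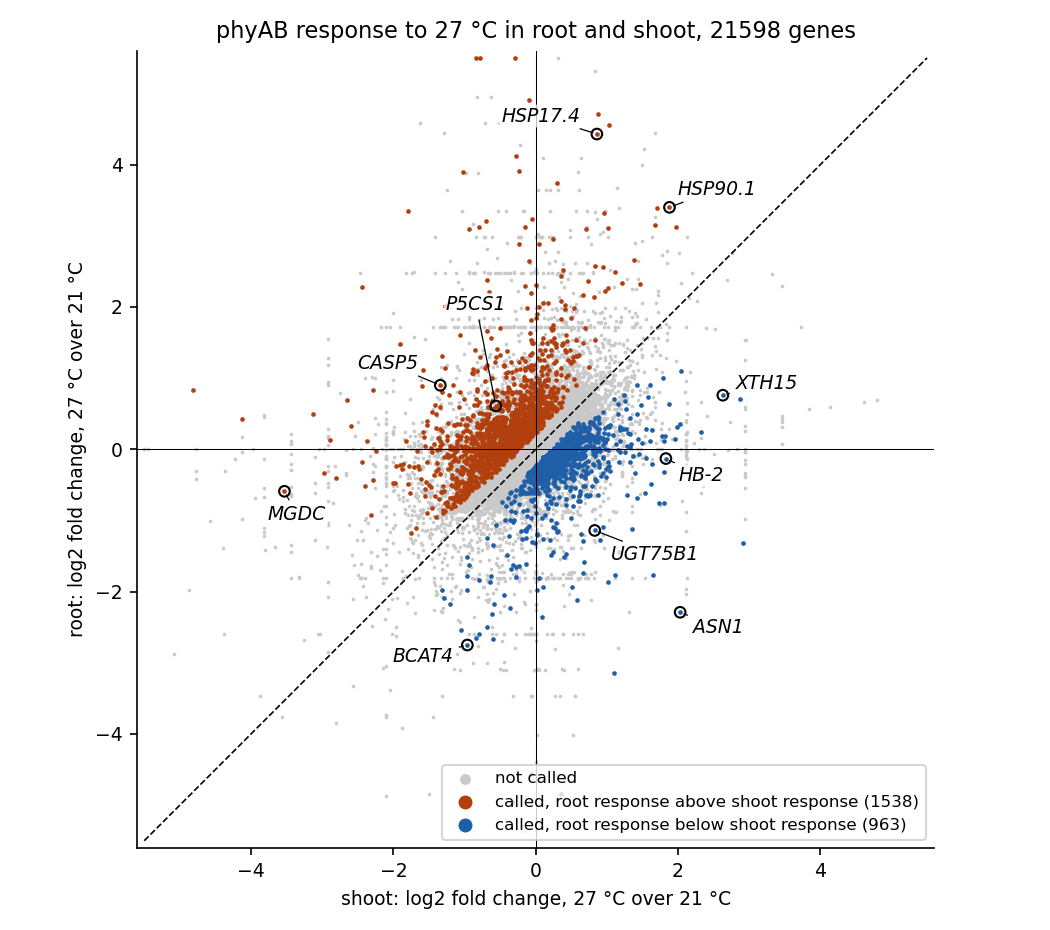
Log2 fold change from 21 °C to 27 °C of each of 21598 genes in phyAB shoots (x axis) and phyAB roots (y axis), with the dashed line marking equal responses and 6 genes beyond an axis limit of 5.5 drawn at the edge. The 1538 genes called above the line and the 963 below it lie on both sides of 0 in each organ. Among the named genes, HB-2 and MGDC moved in mainly 1 organ. UGT75B1, CASP5 and P5CS1 moved in opposite directions, and HSP90.1, BCAT4 and XTH15 moved the same way in both organs.

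Some of the clearest cases of opposite movement were single enzymes and transporters. UGT75B1 (AT1G05560, chromosome 1:1645300-1647435, TAIR10.1), a glucosyltransferase, was at 41.3, 58.0 and 46.8 CPM in roots at 21 °C and at 17.6, 25.3 and 23.7 CPM at 27 °C. In shoots it went from 13.9, 16.6 and 17.9 CPM to 27.0, 32 and 27.2 CPM. The groups did not overlap in either organ, and the gene ended with a higher level in shoots than in roots at 27 °C where it had been lower at 21 °C. The difference of the log2 responses was -1.97 ± 0.22 (SE), with an adjusted p of 6.76e-07 by edgeR. ABCA4, an ABC transporter gene, fell in roots (log2 change -1.94) and rose in shoots (0.51), a difference of -2.45 ± 0.28. AAP3, an amino acid permease gene, likewise fell in roots and rose in shoots, with a difference of -1.40 ± 0.28, as did DRB3, named for a double-stranded RNA binding protein, with -1.46 ± 0.33. Without both root libraries of conflicting labels, the difference of DRB3 was -0.86 and did not pass.

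In the other direction, P5CS1 (AT2G39800), the enzyme that starts proline synthesis, was at 82.4, 81.1 and 78.8 CPM in roots at 21 °C and at 137, 119 and 112 CPM at 27 °C. In shoots it was at 54.8, 60.6 and 57.2 CPM at 21 °C and at 35.8, 39.3 and 42.3 CPM at 27 °C. The 4 groups were separate, with the root values moving up and the shoot values moving down (difference 1.16 ± 0.12, adjusted p = 1.09e-07, edgeR). The sulfotransferase gene ST4C had a difference of 1.89 ± 0.24, the MATE transporter gene ZF14 one of 1.86 ± 0.33, and the phospholipase gene PLA2A one of 2.1 ± 0.44. Each of these 3 rose in roots and fell in shoots. PHI-1, a phosphate-responsive family gene, had a difference of 2.19 ± 0.55 that dropped to 0.95, below the threshold, without root library 2 at 27 °C.

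ASN1 (AT3G47340, chromosome 3:17437840-17441431) encodes an asparagine synthase known to rise in dark or sugar-starved tissue. Among called genes with a symbol in the reference and at least 5 CPM in some phyAB group, it had the largest negative difference. It was at 6.06, 47.7 and 7.08 CPM in roots at 21 °C and at 3.79, 3.69 and 5.15 CPM at 27 °C. In shoots it was at 14.1, 32.1 and 31.7 CPM at 21 °C and at 64.4, 162 and 92.0 CPM at 27 °C. The shoot groups were apart by a factor that every library shows, while the root fall leaned on library 2 at 21 °C, which stood well above the other 2. The difference was -4.32 ± 1.01 (adjusted p = 0.00494, edgeR), and without that root library it was -2.68 and no longer passed. The same root library was also the high one for the carbonic anhydrase gene CA1, whose difference went from -2.70 to -1.49, below the threshold, without it. For the receptor kinase gene RK2 it went from -2.88 to -1.69, again below the threshold. Root library 2 at 21 °C also had the highest photosynthesis sum of the cool phyAB roots, 354 CPM against 236 and 213 CPM in its replicates. Whether shoot RNA in it takes part in these calls was not tested. NAP, a NAC transcription factor gene of leaf senescence, was at 0.629, 0.797 and 0.253 CPM in roots at 21 °C and at 0.312, 0.209 and 0.141 CPM at 27 °C. It rose in shoots from 0.992, 1.21 and 0.627 CPM to 6.39, 7.94 and 7.13 CPM. The shoot libraries thus separated completely while root levels were low throughout, and the difference was -4.22 ± 0.63 (adjusted p = 3.93e-05).

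Among the other large negative differences, AGP22, an arabinogalactan protein gene, was high in roots at both temperatures (111 to 130 CPM and 140 to 147 CPM) and rose in shoots from 3.04 to 6.46 CPM to 20.2 to 26 CPM. TPPJ, of the trehalose phosphate phosphatase family, fell in roots from 7.54, 10.7 and 12 CPM to 1.44, 1.26 and 2.11 CPM, and MSRB6, a methionine sulfoxide reductase gene, fell in roots from 2.60, 4.69 and 3.19 CPM to 1.09, 0.921 and 0.703 CPM. Neither passed the test in shoots. AT4G35770, of the rhodanese family, rose in shoots from 33.8 to 50.8 CPM to 222 to 454 CPM, while its root groups overlapped. The large positive differences were mostly of genes with few reads in roots. GH9B15, a glycosyl hydrolase gene, had reads in 1 root library of 6, number 2 at 27 °C, at 1.76 CPM. MLP28 stood at 25.4 CPM in that library against 0.0781 and 0.0469 CPM in its replicates, and LUP1, lupeol synthase, at 2.26 CPM against 0.156 and 0.141 CPM. These genes were at 1.38 CPM or more in every phyAB shoot library, and the same root library had the highest photosynthesis sum of the phyAB roots, 926 CPM against 423 and 496 CPM in its replicates. Without it the differences of MLP28 and LUP1 changed sign, to -1.93 and -0.04, and those of GH9B15 and of the transporter gene ABCG31 no longer passed. Whether shoot RNA in that library takes part in these calls was not tested. MYB111, a flavonol regulator, had no reads in roots at 21 °C and 0.0419 to 0.141 CPM at 27 °C, so its root change has no measured size. It fell in shoots from 6.02 to 6.27 CPM to 2.83 to 3.39 CPM. GPX7, a glutathione peroxidase gene, and FH19, a formin gene, passed in the difference and fell in shoots without passing in roots.

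**Figure D2:**
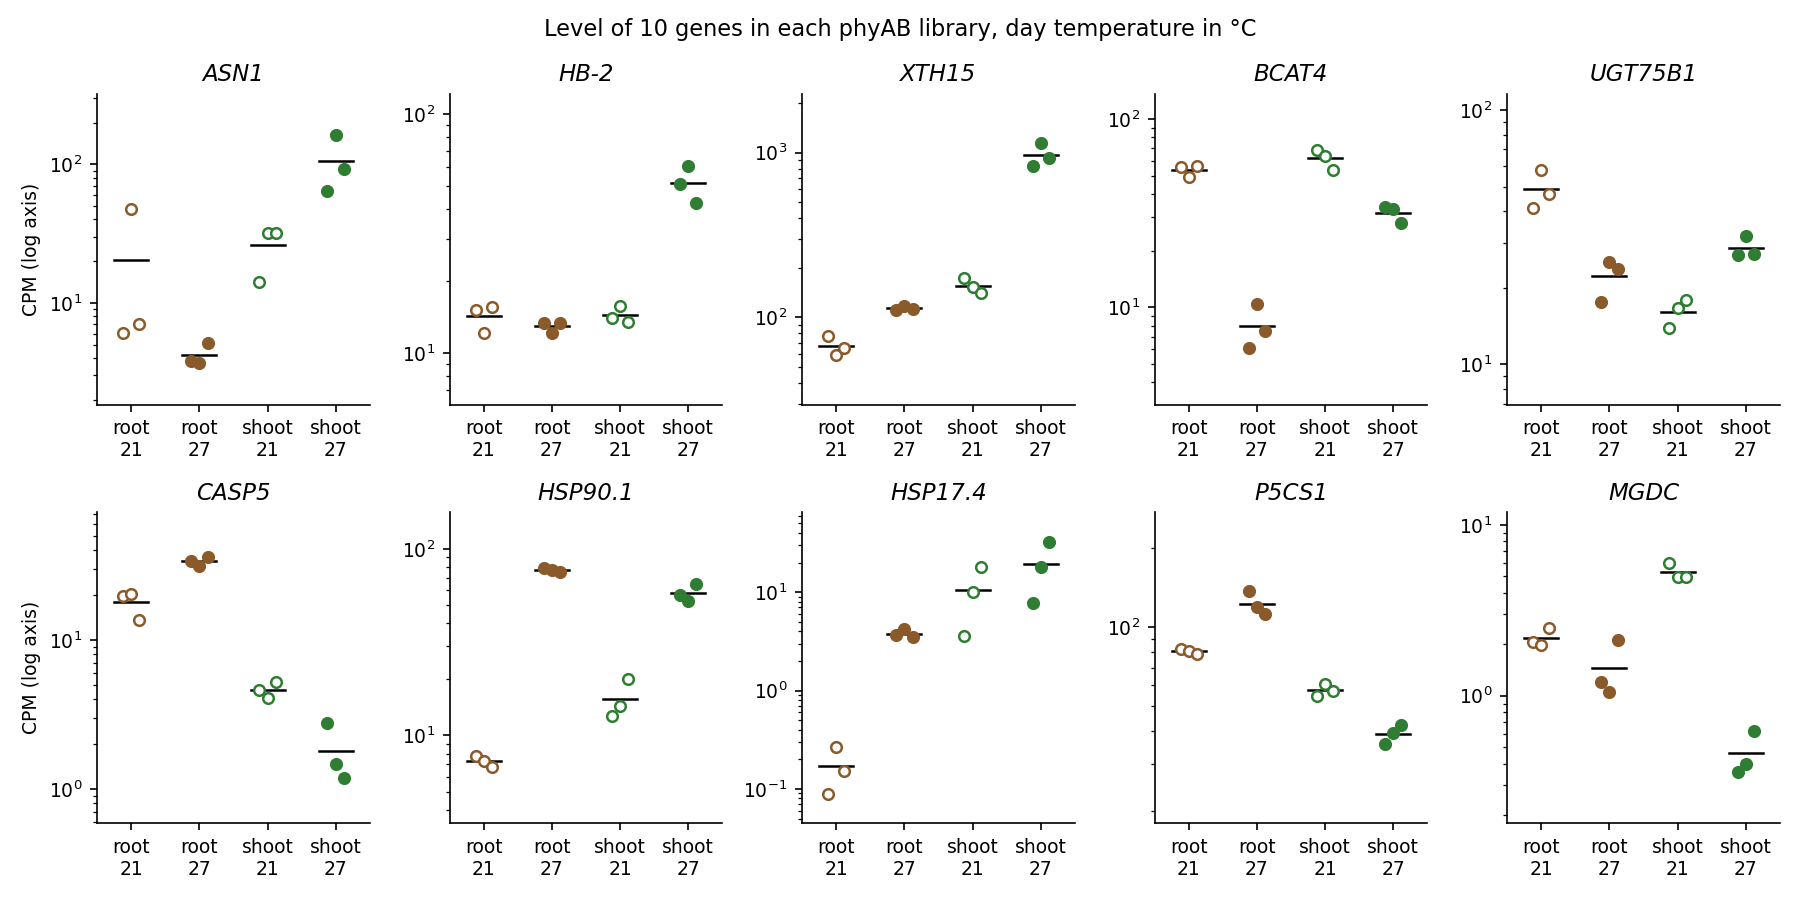
Level in CPM, on log axes, of 10 genes in each of the 12 phyAB libraries, with roots in brown, shoots in green, open circles for 21 °C, filled circles for 27 °C and a line at each group's mean. UGT75B1, CASP5 and P5CS1 move in opposite directions in the organs, HB-2 moves in shoots (42.4 to 60.9 CPM at 27 °C) and not in roots, and root library 2 at 21 °C is the high point of ASN1, at 47.7 CPM.

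The genes that make aliphatic glucosinolates, the methionine-derived defence compounds of the cabbage family, fell in both organs and fell further in roots. Of 16 genes tested, 14 fell in roots and 14 fell in shoots, and the difference passed for 10, all with the root response below the shoot response. The median over the 14 with more than 3 reads in every phyAB group was -2.15 in roots, -0.69 in shoots and -1.5 for the difference, beside 0.04 for the difference over all genes. BCAT4 (AT3G19710, chromosome 3:6846969-6849582), the aminotransferase of the first step of chain elongation, was at 55.9, 49.1 and 56.4 CPM in roots at 21 °C and at 6.09, 10.4 and 7.45 CPM at 27 °C. In shoots it was at 68.2, 63.8 and 53.5 CPM and then at 34, 33.4 and 27.9 CPM. At 21 °C the organs had similar levels, and at 27 °C every root library was below every shoot library (difference -1.79 ± 0.22, adjusted p = 2.76e-06, edgeR). MAM1, the next enzyme of chain elongation, had a difference of -1.69 ± 0.18, and CYP83A1, a core-structure P450, one of -1.81 ± 0.22. MYB28, a master regulator of the pathway, fell by 1.22 in roots and by 0.38 in shoots on the log2 scale (difference -0.84 ± 0.13). SOT17 and SOT18 are close relatives, so reads may be split between them. Of 13 indole glucosinolate genes 1 was called, AT2G44490, with the higher root response, where 7.12% of all genes were called higher.

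Most heat shock genes rose in both organs, and in each call of the difference the root response was the higher. Of 33 chaperone and heat shock factor genes, 25 rose and none fell in roots, while 20 rose and 4 fell in shoots. The difference passed for 15, all with the root response above. The median over the 30 genes above 3 reads in every phyAB group was 0.91 in roots, 0.75 in shoots and 0.41 for the difference. HSP90.1 (AT5G52640, chromosome 5:21352557-21355147), the heat-inducible cytosolic HSP90, was at 7.81, 7.26 and 6.78 CPM in roots at 21 °C and at 78.7, 77.4 and 75.5 CPM at 27 °C. In shoots it was at 12.7, 14.4 and 20 CPM and then at 56.8, 52.5 and 64.4 CPM. Roots thus started below shoots and ended above them, with a log2 rise of 3.40 ± 0.17 against 1.88 ± 0.16 (difference 1.52 ± 0.23, adjusted p = 6.35e-05). AT5G48570, an FKBP-type isomerase, followed the same course, with 5.93 to 7 CPM in roots at 21 °C, 54.6 to 64.9 CPM at 27 °C, and a difference of 1.47 ± 0.19. HSP70 (AT3G12580) had a difference of 1.15 ± 0.32 and HSP101, the disaggregase that rescues proteins after heat, one of 0.71 ± 0.18.

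The constitutive chaperones behaved differently within the same list. HSC70-1, an abundant cytosolic HSP70, rose in roots from 2380, 2160 and 2360 CPM to 2660, 2770 and 2750 CPM, and fell in shoots from 2360, 2130 and 2010 CPM to 1720, 1420 and 1660 CPM. The groups were separate in both organs, and the difference of 0.68 ± 0.10 had an adjusted p of 4.98e-05. Hsp70-2, its near copy beside it on chromosome 5, had a difference of 1.35 ± 0.13 with root values of 9.16 to 11.1 CPM at 21 °C and 20.9 to 22.2 CPM at 27 °C, and may share reads with it. The heat shock factor gene HSFA2 rose by 2.17 in roots and 1.72 in shoots, and its difference of 0.45 ± 0.41 did not pass. The coactivator gene MBF1C rose by 2.76 in each organ, and the difference had an SE of 0.27.

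Among small heat shock proteins, which hold unfolding proteins, were the largest called differences of the list and the least certain ones. Other members, such as HSP17.6II and HSP18.2, did not pass. HSP17.4 (AT3G46230, chromosome 3:16984118-16984867) was at 0.0898, 0.266 and 0.152 CPM in roots at 21 °C and at 3.71, 4.19 and 3.47 CPM at 27 °C. In shoots it was at 3.6, 10 and 18.2 CPM at 21 °C and at 7.77, 17.9 and 32.6 CPM at 27 °C. Root groups were far apart, while shoot groups overlapped and their values rose with the summed level of seed storage and oil body genes, which was 692, 1350 and 3310 CPM in the same libraries at 21 °C. The part of seed RNA in this difference of 3.57 ± 0.84 (adjusted p = 0.00527) was not tested. HSP17.6A had 3 reads in all in roots at 21 °C and stood at 0.586, 1.09 and 1.08 CPM at 27 °C, and HSP23.6-MITO had 2 reads and then 1.21, 0.838 and 0.515 CPM. Without the shoot libraries numbered 3, the richest in seed transcripts, 11 of the 33 genes passed, without both root libraries of conflicting organ labels 10 passed, and in a fit of the phyAB libraries alone 8 passed, in each case with the root response above.

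Heat shock factors bind repeats of the unit GAA in alternating orientation, and the shortest such core, GAANNTTC, was looked for on both strands in the 300 bases from 250 before to 50 after each annotated start. It was found in 10 of 33 heat shock promoters (30.3%), in 5 of the 15 with a higher root response (33.3%), and in 2420 of all 21502 promoters (11.3%), with a share of 12.4% among all genes with a higher root response. The 5 are shown because they include genes of the largest differences, read 5′ to 3′ along the gene from the TAIR10.1 assembly of RefSeq, with the core in capitals. For HSP17.4 these are the 250 bases before its start (3:16984868-16985117, minus strand), where the first core lies at position -99; the others are the 30 bases around the core of AT1G53540 (1:19980235-19980264, plus strand, position -53), HSP101 (1:27940322-27940351, minus strand, position 29), HSP70 (3:3993848-3993877, minus strand, position 20) and HSP23.6-MITO (4:12916928-12916957, plus strand, position 13), counted from the annotated start. A match is a run of letters and not a measured site.
HSP17.4: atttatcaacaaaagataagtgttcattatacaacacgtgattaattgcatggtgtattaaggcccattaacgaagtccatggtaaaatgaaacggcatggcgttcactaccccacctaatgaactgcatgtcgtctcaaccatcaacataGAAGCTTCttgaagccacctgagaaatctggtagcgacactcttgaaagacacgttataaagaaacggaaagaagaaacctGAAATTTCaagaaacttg
AT1G53540: cctcaacaccaGAAACTTCttgaaagcacc
HSP101: ataaaataagcGAAAATTCcacgtgacatc
HSP70: tctttactcgtGAACGTTCtcgaaagctct
HSP23.6-MITO: ccacttctccaGAACATTCactcactgaca

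More shade and PIF target genes rose in shoots than in roots, and those that differed mostly had the stronger shoot response. Of 20 genes, 11 rose and 2 fell in shoots, 6 rose and 1 fell in roots, and the difference passed for 9: the root response was below for 7 and above for 2. The median difference over all 20 was -0.05, with 9 positive. Over the 18 genes above 3 reads in every phyAB group the median was 0.32 in roots, 0.72 in shoots and -0.28 for the difference. HB-2 (AT4G16780, chromosome 4:9449114-9450905), a homeobox gene that marks the shade response, was at 15.1, 12.2 and 15.6 CPM in roots at 21 °C and at 13.4, 12.2 and 13.4 CPM at 27 °C. In shoots it was at 14.1, 15.8 and 13.5 CPM and then at 50.9, 60.9 and 42.4 CPM. The 9 other libraries fell between 12.2 and 15.8 CPM, and only the warm shoots stood out, with a shoot change of 1.83 ± 0.12, a root change of -0.13 ± 0.12 and a difference of -1.97 ± 0.17 (adjusted p = 1.36e-08, edgeR). The relatives HAT1 and HB4 had differences of -0.84 ± 0.12 and -1.27 ± 0.24. XTH15, a xyloglucan enzyme that loosens walls, rose in both organs, from 77.2, 59.1 and 65.2 CPM to 111, 118 and 112 CPM in roots and from 174, 153 and 141 CPM to 825, 1140 and 924 CPM in shoots (difference -1.87 ± 0.18). PIF3 and PIL5, which encode PIF proteins themselves, were the 2 with the higher root response, from root levels of 0.808 to 1.37 CPM and 1.47 ± 0.169 CPM (SD, n = 3) at 21 °C.

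Both auxin synthesis genes among these had the stronger shoot response. YUC8 and YUC9, flavin monooxygenases that make auxin, rose in shoots by 0.98 and 1.64 and did not pass in roots, with differences of -0.88 ± 0.18 and -1.37 ± 0.28. TAA1, the aminotransferase of the step before, fell in shoots (0.60 ± 0.17 for the difference). Of the 21 genes of auxin synthesis and transport, 3 had a lower root response (YUC8, YUC9 and AUX1) and 1 a higher one. The call of AUX1 held in 10 of 21 other settings. Of 28 auxin response genes, 5 were lower and 2 higher, beside 4.46% and 7.12% of all genes. The repressor gene IAA2 fell in roots from 33.8, 35.4 and 29.6 CPM to 28.0, 26.8 and 23.6 CPM and rose in shoots from 195, 189 and 168 CPM to 253, 281 and 245 CPM, with no overlap in either organ (difference -0.83 ± 0.14). GH3.3, an auxin-conjugating enzyme, fell in roots from 17.6, 13.9 and 6.07 CPM to 2.03, 3.56 and 2.48 CPM and did not pass in shoots (difference -1.87 ± 0.40), while its relative DFL1 rose in roots (difference 0.86 ± 0.16). The brassinosteroid synthesis gene CPD rose in shoots by 1.03 and in roots by 0.31, and with the wall enzyme gene TCH4, which went the other way, was 1 of 2 called among 14 brassinosteroid genes. The water channel genes of the aquaporin list rose widely, 11 of 19 in roots and 16 in shoots, and the difference passed for 2, both lower in roots: PIP1C (-0.87 ± 0.15) and PIP3 (-0.68 ± 0.13). The G-box CACGTG, which PIF and HY5 proteins bind, was in 112 of the 963 promoters of genes with a lower root response (11.6%), in 7.61% of those with a higher one and in 8.69% of all, but in none of the 7 shade genes with a lower root response within this window.

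Genes for ribosome building, most of them nucleolar, fell in both organs, all 18 of 18 in each, and fell further in shoots. The median was -0.84 in roots, -1.16 in shoots and 0.34 for the difference, which was positive for all 18 and passed for 5. NAP57 (AT3G57150, chromosome 3:21153815-21156075), the pseudouridine synthase dyskerin, was at 254, 283 and 275 CPM in roots at 21 °C and at 147, 149 and 156 CPM at 27 °C. In shoots it went from 151, 134 and 150 CPM to 66.9, 51.1 and 59.5 CPM. The groups were separate in both organs, with a fall of 0.85 in roots and 1.3 in shoots on the log2 scale (difference 0.45 ± 0.11, adjusted p = 0.0069, edgeR). FIB1, fibrillarin, had a difference of 0.46 ± 0.11, the NOP56-like AT5G27120 one of 0.45 ± 0.13, the WD40 gene AT2G40360 one of 0.44 ± 0.12 and the Gar1-type AT3G03920 one of 0.44 ± 0.12. These are small differences, and the number called followed the method: 10 genes passed with DESeq2, 9 with another scaling (RLE), and 1 in a fit of the phyAB libraries alone. It also followed single shoot libraries, with 2 called without number 2 at 27 °C, 3 without number 3 at 21 °C, 8 without number 2 at 21 °C and 11 without number 3 at 27 °C.

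The telo-box AAACCCTA, a motif of ribosomal gene promoters, was in 13 of these 18 promoters (72.2%) against 5.49% of all 21502. It was also in 11.9% of promoters of genes that fell in roots and 10.7% of those that fell in shoots, against 2.71% and 3.07% of those that rose, so in either organ it was more frequent among genes that fell. Stretches of 30 bases around the first match are shown for the 4 called genes that hold one, 5′ to 3′ along the gene, with matches in capitals: AT2G40360 (2:16856789-16856818, minus strand, position -36), NAP57 (3:21156049-21156078, minus strand, position 8), AT5G27120 (5:9540806-9540835, plus strand, position -44) and FIB1 (5:21293929-21293958, plus strand, position -207).
AT2G40360: tccattatctaAAACCCTAaatctcttgtt
NAP57: actgtcgcctaAAACCCTAaaAAACCCTAg
AT5G27120: gatgcgttttaAAACCCTAggttacaaaaa
FIB1: tcacaaaaataAAACCCTAacttatctttt

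Phosphate starvation genes fell in shoots and not in roots. Of 14 genes, 8 fell in shoots and none rose, 3 rose in roots and none fell, and 8 passed in the difference, all with the root response above (median 0.62 for the difference, 0.04 in roots, -0.46 in shoots). MGDC (AT2G11810, chromosome 2:4743162-4746813), a galactolipid synthase that replaces phospholipids, was at 5.95, 4.94 and 4.95 CPM in shoots at 21 °C and at 0.359, 0.397 and 0.623 CPM at 27 °C. In roots it was at 2.07, 1.99 and 2.48 CPM and then at 1.21, 1.05 and 2.11 CPM, groups that overlap. The shoot fell by 3.53 ± 0.35 on the log2 scale and the root change did not pass (difference 2.94 ± 0.48, adjusted p = 0.000135, edgeR). PHO1, which loads phosphate into the xylem, rose in roots and fell in shoots (difference 0.65 ± 0.13), the sulfolipid enzyme genes SQD1 and SQD2 fell in shoots (0.73 ± 0.15 and 0.59 ± 0.13), and the acid phosphatase gene PAP17 rose in roots from 6.6, 10.4 and 7.49 CPM to 20.5, 19.0 and 17.8 CPM (1.58 ± 0.35).

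More nitrogen genes fell than rose in each organ. Of 18 nitrogen genes, 11 fell and 1 rose in roots, 9 fell and 4 rose in shoots, and the difference passed for 7 with a lower and 3 with a higher root response. NIA1 (AT1G77760), a nitrate reductase, fell in roots from 73.7, 48.3 and 68.8 CPM to 27.8, 32.2 and 28.8 CPM, while shoots were at 266, 438 and 428 CPM and then at 475, 454 and 437 CPM. Root groups did not overlap and shoot groups did (difference -1.37 ± 0.26, adjusted p = 0.000754, edgeR). LBD39 and LBD38, nitrate-responsive repressors, fell in roots and did not pass in shoots (differences of -0.78 ± 0.11 and -0.58 ± 0.10), and GS2, plastid glutamine synthetase, rose in shoots and did not pass in roots (-0.52 ± 0.10). The 3 higher ones were the transporter genes NRT1.5 and AMT1;3 and the myb-like AT1G13300, and none of them passed without the shoot libraries numbered 3, nor without shoot library 2 at 27 °C or shoot library 3 at 21 °C alone. Of 24 iron genes, 4 were higher and 1 lower in the root response, beside 7.12% and 4.46% of all genes. The ferritin gene FER3 fell in shoots by 1.38 with no call in roots (difference 1.19 ± 0.18), and AT3G13610, an oxygenase, fell further in shoots than in roots (1.86 ± 0.34). Among 8 sugar transporter genes STP1 and SWEET16 were lower and SUC2 higher, and among 15 low-sugar genes ASN1 and AT4G35770 were lower. The call of STP1 held in 15 of 21 other settings, that of SUC2 in 13 and that of AT4G35770 in 14.

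Casparian strip genes, which build the diffusion barrier of the root endodermis, moved apart in the organs, though their shoot levels were low. Of 22 endodermis and suberin genes, 7 passed in the difference, all with the root response above, and the list's median was 0.14. CASP5 (AT5G15290, chromosome 5:4967011-4968092), a scaffold protein of the strip, was at 19.8, 20.4 and 13.6 CPM in roots at 21 °C and at 33.8, 31.2 and 36 CPM at 27 °C. In shoots it was at 4.59, 4.08 and 5.20 CPM and then at 2.75, 1.47 and 1.18 CPM. The groups were separate in both organs, up in roots and down in shoots (difference 2.24 ± 0.40, adjusted p = 0.000392, edgeR). CASP1, CASP2, the peroxidase gene PER64 and ESB1 also fell in shoots. In roots ESB1 rose, and CASP1, CASP2 and PER64 did not pass. PER64 went in shoots from 16.3, 14.6 and 12.7 CPM to 7.47, 5.33 and 4.08 CPM and CASP2 from 8.25, 8.39 and 5.58 CPM to 4.12, 2.89 and 1.66 CPM, with roots at 77.3 to 101 CPM and 49.4 to 61.8 CPM over both temperatures. These are root genes by reputation, and the 16 root markers summed to 4260 to 4570 CPM in phyAB shoots at 21 °C and to 3610 to 3840 CPM at 27 °C; whether root tissue in the shoot samples takes part in their fall was not tested. Of the 16 root markers 4 were called, PYK10, PER64, ESB1 and CASP1, of which the last 3 are also endodermis genes. None of 15 root hair genes passed in edgeR or in DESeq2, and 0 had an unadjusted p under 0.05.

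Photosynthesis genes rose in both organs by proportion, 29 of 46 in roots and 17 in shoots, from root levels that were a small part of the shoot levels. The difference passed for 9, all with the root response above, and its median was 0.46. LHB1B2, a light-harvesting protein gene with near-identical copies, went in roots from 11.4, 18.2 and 20.2 CPM to 120, 194 and 115 CPM, and in shoots from 6320, 5920 and 6290 CPM to 12500, 12700 and 12000 CPM (difference 2.1 ± 0.46, adjusted p = 0.00265, edgeR). Groups were separate in both organs. The summed root level of the list was 0.104% to 0.173% of the shoot level at 21 °C and 0.172% to 0.377% at 27 °C, and without root library 2 at 27 °C, which had the highest sum, only 2 of the 46 passed. The part of shoot RNA in these calls was not tested. Among 15 chlorophyll and greening genes 4 were higher in the root response; HEMA1, which commits glutamate to tetrapyrroles, rose in roots from 37.7, 41.5 and 33.5 CPM to 46.7, 51.1 and 44.0 CPM and fell in shoots from 717, 761 and 679 CPM to 486, 485 and 448 CPM (difference 0.93 ± 0.12). In all, 25 of the 1538 genes with a higher root response (1.63%) and 4 of the 963 with a lower one (0.415%) had a root level of at most 1% of the shoot level, against 912 of all genes (4.22%). These shares also depend on how many root reads such genes have, and they are no test of shoot RNA.

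Of 21 salicylic acid and immunity genes, 9 fell in shoots and none rose, 5 rose in roots and none fell, and 6 passed in the difference, all higher in roots. WRKY18, a defence transcription factor gene, fell in shoots from 12.3, 14.8 and 16.3 CPM to 6.57, 5.78 and 6.92 CPM and did not pass in roots, at 2.56, 3.98 and 3.44 CPM and then 3.94, 3.1 and 3.14 CPM. Its difference was 1.21 ± 0.24 (adjusted p = 0.00124, edgeR), and NPR1, the salicylic acid receptor, rose in roots (0.52 ± 0.12). Of 19 abscisic acid genes 5 were higher in roots and 1 lower, the synthesis gene NCED3 (-0.93 ± 0.27), which rose in shoots. Among 18 jasmonate genes LOX4, ORA59 and JAZ1 were higher, beside 7.12% of all genes. Their calls held under 19, 15 and 11 of 21 other settings. Among 16 cold genes 3 were higher, AT4G33980 (2.68 ± 0.81), KIN1 (1.93 ± 0.60) and LTI78 (1.52 ± 0.24). The last fell in shoots from 23.6, 33.9 and 40 CPM to 9.50, 12 and 14.7 CPM with overlapping root groups, while GolS3 was lower. The calls of AT4G33980, KIN1 and GolS3 held under 13, 11 and 9 of 21 other settings. Without the shoot libraries numbered 3, 1 cold gene was called higher.

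**Figure D3:**
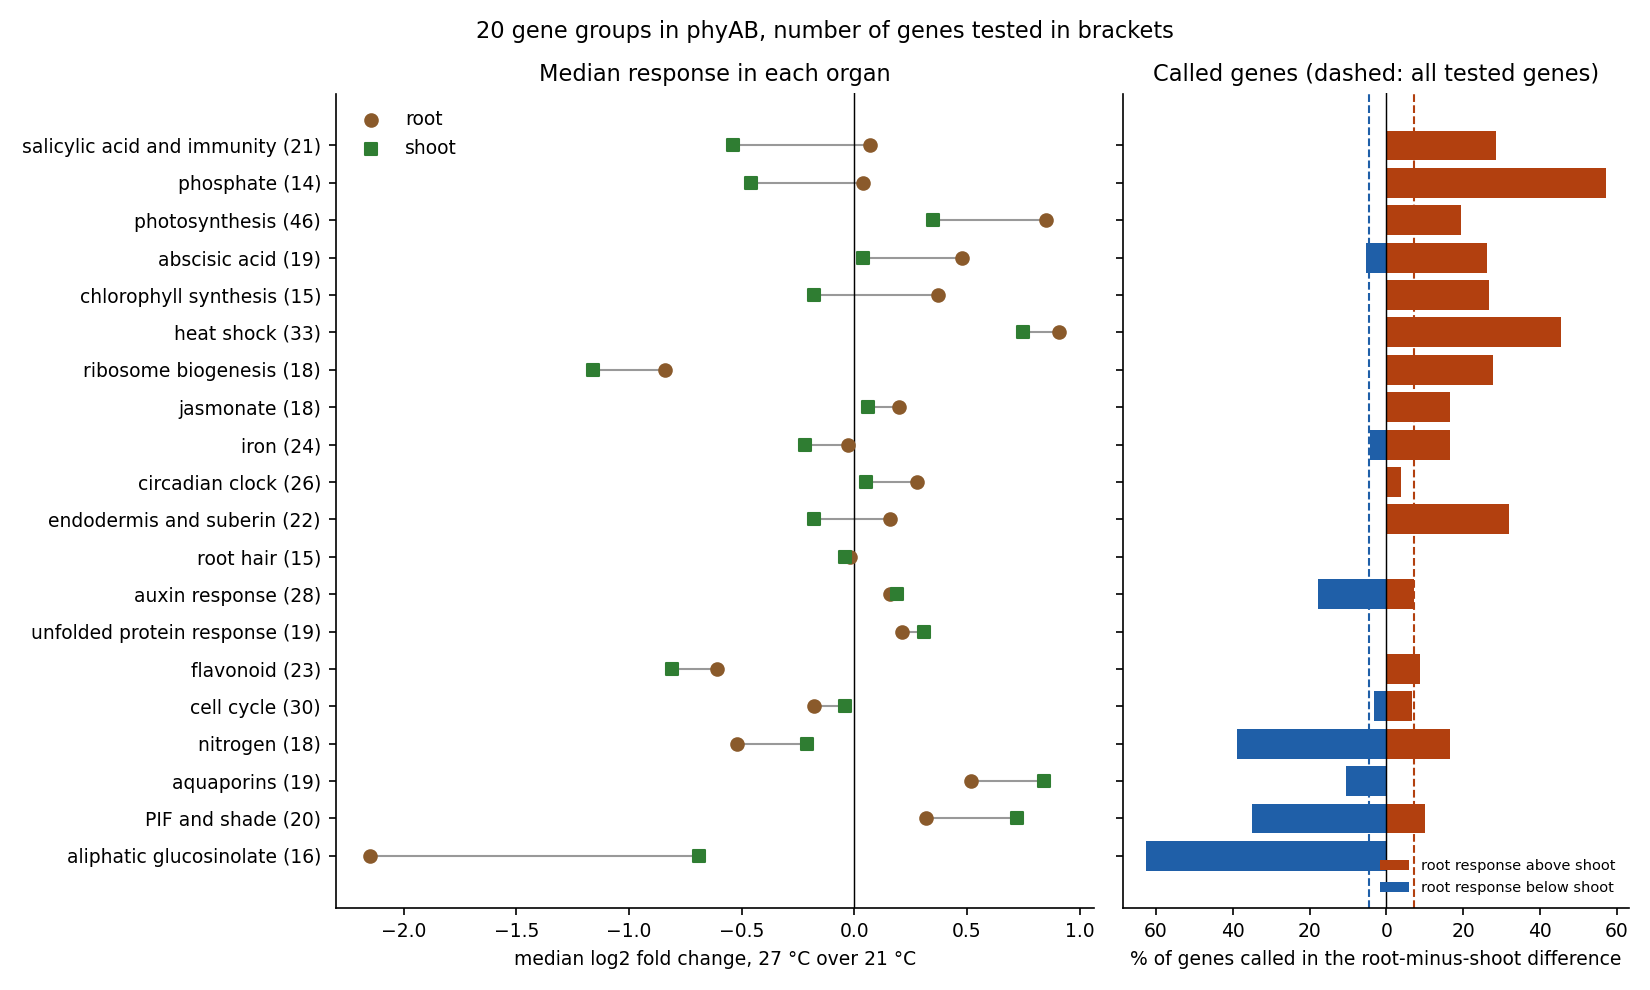
Left, median log2 change from 21 °C to 27 °C in phyAB roots (circles) and shoots (squares) of 20 gene groups, over genes with more than 3 reads in every phyAB group. Right, share of each group's tested genes called in the difference, with dashed lines at 7.12% and 4.46% of all genes; aliphatic glucosinolate genes, at -2.15 and -0.69, are the widest apart, and ribosome genes fell in both organs.

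The remaining lists are given in brief, to be read beside the 7.12% of all genes called higher and the 4.46% called lower. Of 23 flavonoid and anthocyanin genes, 19 fell in shoots and 7 in roots, but the difference passed for 2, UF3GT and MYB111. Leaving out any 1 phyAB library left 0 or 1 of them, and DESeq2 called 4 higher. Among 26 light signalling genes LZF1 was higher and BBX21, STO and PHYA were lower; the PHYA transcript that phyAB still made rose in shoots by 1.18 and in roots by 0.30. The type-A cytokinin response list had 2 of 10 higher, ARR4 and ARR15, and the cell cycle list 2 of 30 higher, TSO2 and CDT1A, and 1 lower, CYC1BAT. Of 21 other settings the call held in 9 for ARR15, in 8 for CDT1A, in 8 for CYC1BAT, in 10 for BBX21 and in 12 for STO. The clock list had 1 of 26 higher, AT4G39260, the gibberellin list 1 of 20 lower, GAI, and the seed list 1 of 17 higher, PCK1. Of 24 wall growth genes XTH24 was higher and XTH30 lower. None of 19 unfolded protein response genes of the endoplasmic reticulum passed in edgeR, where 11 rose in roots and 13 in shoots; 4 had an unadjusted p under 0.05 and DESeq2 called 1.

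The same difference was called for 3402 genes (15.8%) in Col-0, 8.83% higher and 6.92% lower, and for 3615 (16.7%) in hy5, 10.1% higher and 6.69% lower, from libraries that phyAB does not share. Of the 2501 phyAB genes, 1215 were called in the same direction in Col-0, which is 48.6% of the phyAB and 35.7% of the Col-0 genes, and 1302 in hy5, which is 52.1% and 36%. The sign alone was shared by 91.2% and 92.6% of these 2501 genes, which were picked by their call in phyAB. Over all 21598 genes the difference in phyAB had a Pearson correlation of 0.308 with that in Col-0 and 0.338 with that in hy5, given as a description. A test of the genotype difference itself called 22 genes against Col-0 (0.102%), 9 higher (0.0417%) and 13 lower (0.0602%) in phyAB. Against hy5 it called 31 (0.144%), 13 higher (0.0602%) and 18 lower (0.0833%), with 2179 and 2327 genes at an unadjusted p under 0.05. DESeq2 called 118 and 186, and leaving out single phyAB libraries gave 6 to 40 and 15 to 54, with 6 against Col-0 without shoot library 2 at 27 °C or shoot library 3 at 21 °C and 40 without shoot library 1 at 27 °C. The 15 against hy5 came without root library 3 at 27 °C and the 54 without root library 3 at 21 °C. A term for replicate number made both counts several times larger, with values given in the closing section on processing.

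Among the named genes called in the genotype test, that with the largest positive value had a smaller organ difference in phyAB than in Col-0. SULTR3;5 (AT5G19600), a sulfate transporter, was at 20, 18.5 and 21.1 CPM in phyAB roots at 21 °C and at 11.9, 16.5 and 12.4 CPM at 27 °C, with shoots at 8.06 to 9.60 CPM and 8.67 to 10.5 CPM. Its difference was -0.59 in phyAB, -2.76 in Col-0 and -1.80 in hy5, so phyAB stood 2.17 ± 0.33 above Col-0 (adjusted p = 0.00323, edgeR). SUC1, a sucrose symporter, fell in phyAB roots from 72.6, 62.2 and 71.3 CPM to 39.1, 40.1 and 34.4 CPM with shoots at 118 to 122 CPM and 96.1 to 114 CPM. Its difference was -0.68 in phyAB against 0.63 in Col-0. The desaturase gene AT1G06080 rose in phyAB shoots from 55.0, 39.6 and 33.4 CPM to 150, 153 and 132 CPM with roots at 10.7 to 13.3 CPM, a difference of -1.59 against 0.63 in Col-0. Among the other 7 named by the same rule, AST91, C/VIF2, PARP2 and LAC8 were higher in phyAB by 1.08 to 1.62. BGLU6, AFP3 and NIT3 were lower, with genotype differences of -1.94, -1.49 and -1.15. Of 20 other settings the call held in 10 for AFP3, 11 for BGLU6, 13 for C/VIF2 and LAC8 and 15 for PARP2. LAC8, a laccase, was also called against hy5.

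For gene groups the genotypes can be set side by side, over genes with more than 3 reads in each of the 12 groups. The glucosinolate median was -1.5 in phyAB, -1.46 in Col-0 and -1.37 in hy5, and the phosphate median 0.62, 0.71 and 1.05. Heat shock genes had a median of 0.40 in phyAB, 0.12 in Col-0 and 0.06 in hy5, with 15, 4 and 3 of 33 called higher, and ribosome genes 0.34, -0.11 and -0.02, with 5, 0 and 0 of 18 called higher. Flavonoid genes had -0.24 in phyAB, 0.91 in Col-0 and 1.5 in hy5 over the 12 of 23 genes with enough reads, with 2, 7 and 8 of all 23 called higher. The sign in phyAB turned with that limit, as the median over all 23 was 0.35, with 15 positive. No gene of the heat shock, ribosome, glucosinolate, phosphate or PIF lists was called in the genotype difference against either Col-0 or hy5 by edgeR without a replicate term. At an unadjusted p under 0.05 the heat shock list had 15 of 33 genes against Col-0 and 16 against hy5, the ribosome list 12 and 9 of 18, the glucosinolate list 3 and 3 of 16, the phosphate list 1 and 3 of 14 and the PIF list 6 and 6 of 20. Over all 21598 genes tested, 2179 against Col-0 and 2327 against hy5 were under the same limit.

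**Figure D4:**
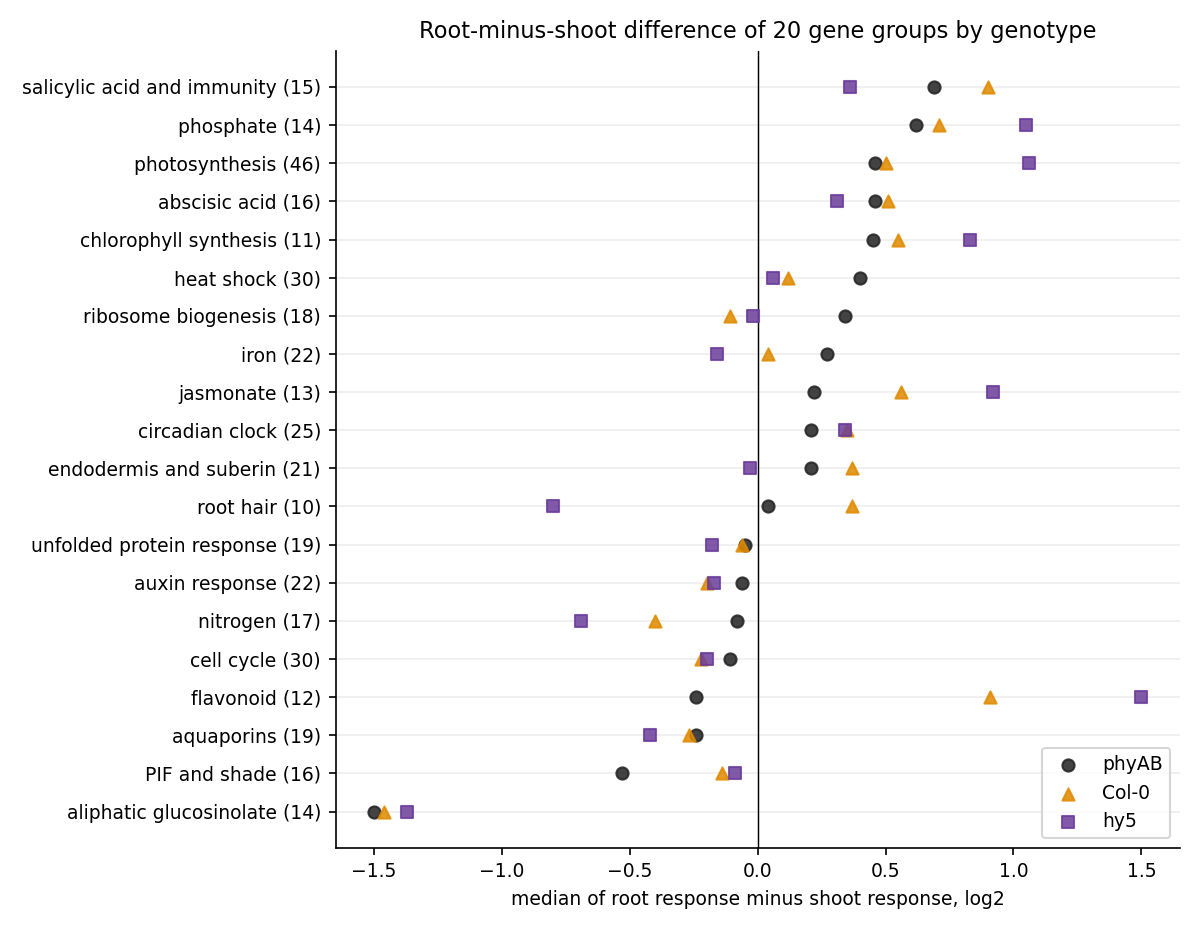
Median of the root response minus the shoot response, on the log2 scale, of 20 gene groups in phyAB (circles), Col-0 (triangles) and hy5 (squares), over the genes given in brackets, which have more than 3 reads in each of the 12 groups. The 3 genotypes lie close for aliphatic glucosinolate genes, at -1.5, -1.46 and -1.37, and farthest apart for flavonoid genes, at -0.24, 0.91 and 1.5.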

How the data were processed

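Stranded mRNA libraries were read from 1 end for 50 bases, per the labels' protocols. FastQC, TopHat2 (onto TAIR10), HTSeq and edgeR are the tools that the submitters' processing notes name; their versions, and whether counting used strand, are not known here, so reads of overlapping antisense genes may be included. The deposited values are whole-number counts of reads per gene. Reads at more than 1 place (5.31% to 6.15% in phyAB roots, 8.29% to 28.8% in phyAB shoots) are among 5 summary categories left out here. In phyAB shoots library 3 had the highest share at each temperature, 16.5% at 21 °C and 28.8% at 27 °C. Shoot library 3 at 27 °C had 27.8% in Col-0 and 34.6% in hy5. One edgeR 4.0.16 quasi-likelihood model (R 4.3.3) of 36 libraries in 12 groups, with TMM factors and the default filter, gave the tests, with Benjamini-Hochberg adjustment over 21598 genes, a threshold of 0.05 and no replicate term. The procedure was tested on simulated counts, with known root-only changes put into well-counted genes. It recovered 47.8% of 1.5-fold, 85.1% of 2-fold and 92.4% of 4-fold changes. Of its 161 calls, 11 were on unchanged genes. Unchanged genes had no temperature effect in either organ and libraries were drawn independently, so recovery and false calls in these data may differ. Named genes were the 10 largest differences each way, up to 6 opposite movers each way, up to 4 called members per list and the 5 largest genotype differences each way. Apart from the list members, these were called genes with a symbol in the reference and a mean of at least 5 CPM in a phyAB group. The members and the 32 lists were chosen with earlier results of these data known. Names, coordinates and promoters are from TAIR10.1, whose chromosomes could not be compared with files that hold no coordinates. DESeq2 1.42.0, other scalings, filters and left-out libraries were tried. Values of 1 gene are not reported here.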

Additional observations from a re-analysis of the deposited data

Results flagged for a closer look

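The root and shoot responses of phyAB differed for 2501 genes by the test of the difference itself, and for 251 of them both organs passed in opposite directions. Of the genes named for opposite movement, those higher in the root response were MYB111 at 4.91, CASP5 at 2.24, PHI-1 at 2.19, PLA2A at 2.1, ST4C at 1.89 and ZF14 at 1.86 on the log2 scale. The value of MYB111 depends on the small count that the fit adds, as roots at 21 °C had no reads, and it is no measure of size. Those lower in the root response were ASN1 at -4.32, CA1 at -2.70, ABCA4 at -2.45, UGT75B1 at -1.97, DRB3 at -1.46 and AAP3 at -1.40. The call of DRB3 was lost, at -0.86, without both root libraries of conflicting labels. Those of ASN1, at -2.68, and CA1, at -1.49, were lost without root library 2 at 21 °C. That of PHI-1, at 0.95, was lost without root library 2 at 27 °C. The call of MYB111 held under 11 of 21 other settings. CA1 in roots stood at 0.0146% of its shoot level at 21 °C and at 0.0022% at 27 °C. The difference between organs differed between phyAB and Col-0 for 22 genes and between phyAB and hy5 for 31 genes. Among the 22, SULTR3;5 was higher in phyAB by 2.17, AST91 by 1.62, C/VIF2 by 1.3, PARP2 by 1.19 and LAC8 by 1.08. The genes lower in phyAB were AT1G06080 at -2.22, BGLU6 at -1.94, AFP3 at -1.49, SUC1 at -1.31 and NIT3 at -1.15. The calls of AFP3 and BGLU6 held under 10 and 11 of 20 other settings.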

How the results depend on the processing

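For the root minus shoot temperature response in phyAB, the count of 2501 genes stayed within 1.5 times under RLE scaling (2647), TMM within each organ (2498), no filter (2215), phyAB alone (1770), DESeq2 (2656), without the root libraries of conflicting labels (1941) and without the seed-rich shoot libraries (1748, chosen after seeing the data); 56.8% to 70.0% were higher over the other scalings and tools against 61.5%. A minimum change of 1.5-fold left 108 for the difference, 507 in roots, 883 in shoots, 1 opposite mover and 0 in either genotype difference. Leaving out 1 phyAB library gave 1752 to 2359 for the difference, 6755 to 8083 in roots, 7035 to 8936 in shoots, 186 to 240 opposite movers, 6 to 40 against Col-0 and 15 to 54 against hy5. The count against Col-0 was 46 with no filter, 118 with DESeq2 and 13 without the seed-rich libraries; that against hy5 was 186 and 11 with the last 2. For pairing, same-numbered phyAB libraries had deviations correlated at 0.142, 0.135 and 0.151 in roots and 0.209, 0.038 and 0.209 in shoots. Differently numbered phyAB pairs reached at most 0.009, so every same-numbered pair lay above them. This is a hint from the data that the numbers pair phyAB libraries, weak for the shoot pair at 0.038. In Col-0 and hy5 the same-numbered pairs did not stand apart in this way. The main fit had no replicate term. A replicate block gave 3166 calls, 2405 of them shared, with 212 against Col-0 and 234 against hy5. Leaving out single libraries moved MLP28 between -1.93 and 5.6 and LUP1 between -0.04 and 2.98, in both cases with the lowest value without root library 2 at 27 °C. HY5, not called, moved between -0.25 and 0.01, turning without shoot library 1 at 27 °C and, to 0.0, without shoot library 3 at 21 °C. The cause was not tested. Depth limits genes under 1 CPM in roots, among them small heat shock genes.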
